A study of Mus musculus with 2 samples.

Results

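Cluster 13 of the class that the authors labelled immune/inflam held 197 of the 7917 aortic cells of this single-cell RNA sequencing series. Members were the cells whose deposited class was immune/inflam and whose deposited cluster number was 13, with 1 entry kept per barcode because the Apoe knockout library had been deposited in 2 identical copies. There were 144 members among 2428 Apoe knockout cells and 53 among 5489 double knockout cells. The first library came from aortas of Apoe-/- mice and the second from aortas of EC-iDKO/Apoe-/- mice, in which an inducible double knockout in endothelial cells (EC) was combined with the same loss of Apoe. All mice had received western diet for 12 weeks. The Apoe knockout, on which atherosclerotic plaques form, was thus shared by both groups, and no group with intact Apoe or on another diet was analysed here. From knowledge of the line, the deletion covers Epn1 and Epn2, which encode epsins, endocytic adaptor proteins. The protocol named CD31 microbeads while the cell type label gave all cells, and how the beads were used was not stated in the sources used here. Each genotype had 1 library, and the number of mice behind it was not given in the sources used here. Every comparison therefore describes these libraries, with no test, and every interval covers counting error only.

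Macrophages are phagocytes that take up dying cells and lipoproteins. In the arterial wall they load cholesterol esters and become foam cells, which express lysosomal enzymes, lipid-binding proteins and the lipid receptor Trem2, while other plaque macrophages express chemokines and interleukin 1. They also present peptides to T cells on MHC class II proteins and make C1q, the recognition part of the classical complement pathway.

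The 6 genes given as marks of the population were present in both libraries with 1 exception. Cd74, the invariant chain of MHC class II, had 5581 UMIs (unique molecular identifiers, each 1 captured transcript) in the Apoe knockout members, or 6452 CPM (UMIs scaled to a population total of 1000000), and 51 UMIs or 1045 CPM in the double knockout members. Lyz2, the myeloid lysozyme, had 4885 and 1905 CPM. C1qb and C1qa, chains of C1q, had 3064 and 2363 CPM in Apoe knockout members, against 840 and 574 CPM in double knockout members. All of these were higher in the members than in the other cells of the same library, where Cd74 was at 74.4 and 5.28 CPM and Lyz2 at 92.0 and 3.53 CPM. Csf1r, the receptor of the macrophage growth factor CSF1, had 265 UMIs (306 CPM) and 4 UMIs (81.9 CPM). Adgre1, which encodes F4/80, had 147 UMIs (170 CPM) in Apoe knockout members and 0 in double knockout members, where a count of 0 allows up to 61.5 CPM (3 UMIs over the population). C1qb, C1qc and C1qa lie next to each other on chromosome 4 of mm10 (GENCODE vM21), at 136880129 to 136886187, 136889804 to 136893065 and 136895917 to 136898803, all on the minus strand, and their UMIs come from separate gene models.

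**Figure D1:**
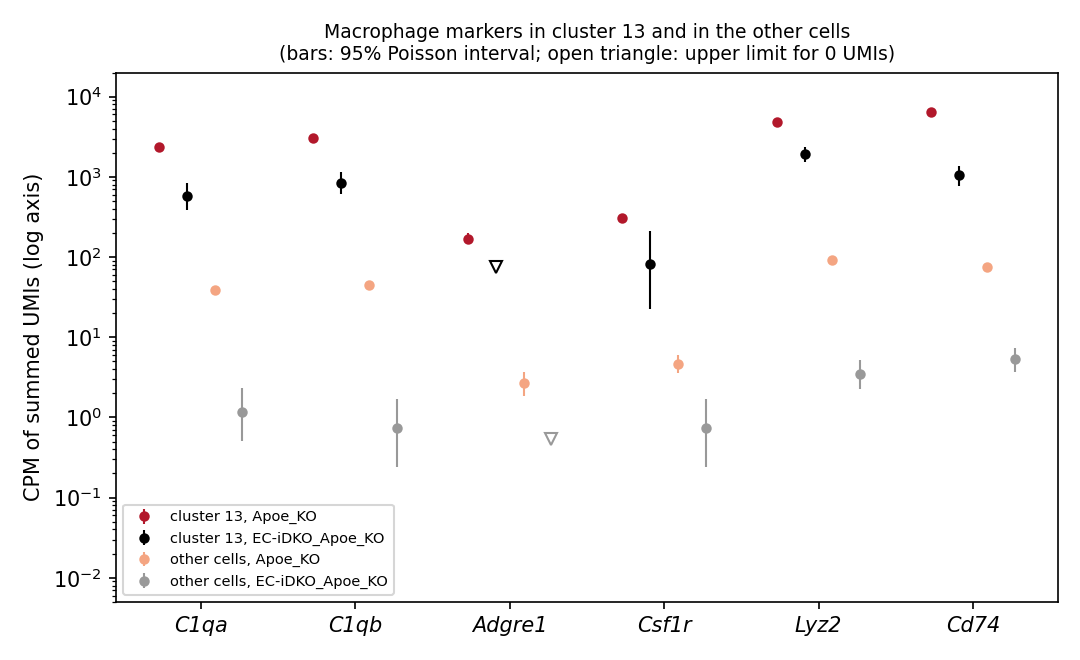
CPM of the summed UMIs (log axis) of the 6 macrophage markers in cluster 13 and in all other cells of each library, with 95% Poisson intervals; an open triangle is the upper limit for a count of 0. In every gene with UMIs the cluster 13 cells of the Apoe knockout are highest, those of the double knockout are lower, and the other cells are lowest.

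The libraries differed in depth, and the members differed more. The Apoe knockout members had 864960 UMIs in all, with a median of 4565 per cell (519 to 28070), and the double knockout members 48818, with a median of 696 (501 to 3568). An 18-gene macrophage list (the 6 markers and 12 more, such as Tyrobp and Fcer1g, adaptors of activating immune receptors) made up 2.72% of the UMIs of Apoe knockout members and 0.699% of those of double knockout members. Every one of the 144 Apoe knockout members carried at least 3 of the 18 genes, against 31 of the 53 double knockout members. Outside the cluster, 367 of 2284 Apoe knockout cells and 3 of 5436 double knockout cells did so. The trait was not particular to the members. In the Apoe knockout library, 68 of 96 cells of cluster 9 with the class EC carried at least 3. So did 6 of 20 immune/inflam cells of cluster 15. At least 10 of the genes were seen in 79 and 2 members. The label thus held in the Apoe knockout for the sum of the cells, while single cells varied widely, and in the double knockout it rested on few UMIs per cell, a median of 4 for the 18 genes.

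Smooth muscle RNA was present in the members too. Over 8 smooth muscle markers, the median CPM was 25.7% of that in the smooth muscle class for the Apoe knockout library, and 67.7% for the other. Such RNA was not particular to the members. In the Apoe knockout library, cells of the class EC were at 19.5% in cluster 20 and at 60.7% in cluster 9. Macrophage UMIs outnumbered smooth muscle UMIs in 84 of the 144 cells from the first library and 4 of the 53 from the second. Whether such UMIs came from free RNA, from cells captured together or from the cells themselves was not tested. No doublet was removed, since the doublet caller Scrublet marked 0.206% of the Apoe knockout cells and 0 double knockout cells, too few for its calls to be used.

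Because a share of cells with a UMI grows with depth, each cell was thinned to 1000 UMIs, which left 139 of 144 Apoe knockout and 15 of 53 double knockout members. After thinning, Lyz2 was seen in 61.9% of the Apoe knockout members (exact Clopper-Pearson 95% interval 53.3 to 70.0) and 60.0% of the double knockout members (32.3 to 83.7). In the smooth muscle class, which should lack it, the shares were 3.59% and 0.267%. Before thinning the members' shares were 75.7% and 84.9%, and the cells kept had median depths of 4783 and 1174 UMIs in the cluster and 5391 and 2048 in the smooth muscle class. C1qb was seen in 51.1% (42.5 to 59.6) and 53.3% (26.6 to 78.7) of the thinned members. For Cd74 the thinned shares were 66.2% (57.7 to 74.0) and 26.7% (7.79 to 55.1). The intervals of the libraries overlapped for Lyz2 and C1qb and did not for Cd74, whose limits of 57.7 and 55.1 lay close together. They cover counting error over the cells of 1 library per genotype, so neither outcome is a test of the genotype.

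Members made up 5.93% of the Apoe knockout cells (exact Clopper-Pearson 95% interval 5.02 to 6.95) and 0.966% of the double knockout cells (0.724 to 1.26). The bead step, dissection and depth cannot be told apart from the genotype in this share. A filter keeping cells of 1000 or more UMIs whose mitochondrial share was below 10% gave 6.67% (131 of 1965) and 0.789% (14 of 1775).

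Within the Apoe knockout library, the cluster 13 cells stood out by immune genes of nearly every kind listed. Of 5338 genes with at least 20 UMIs in the members, 1083 (20.3%) were at least 2-fold higher than in all other Apoe knockout cells with an interval above 1, and 697 (13.1%) at least 2-fold lower. The median gene had a log2 ratio of 0.09. Since the authors clustered the cells on such genes, these are descriptions of the cluster and not tests. The minimum of 20 UMIs was also read on the members alone. List genes scarce in the members were thus left out, which favours calls of higher in the lists below.

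The highest ratio was that of Pla2g7, the lipoprotein-associated phospholipase A2. It had 129 UMIs (149 CPM) in the members and 6 (0.482 CPM) in the other cells, a ratio of 309 (95% exact interval 138 to 858). Csf2rb, the shared beta chain of the GM-CSF and interleukin 3 receptors, was 195-fold higher (106 to 399). Mmp12, the macrophage elastase, was 188-fold higher (135 to 268), with 496 UMIs. Next came Ifitm1 and the antiviral gene Rsad2, at 145- and 138-fold. The 25 leading genes also held Slamf7, Basp1, the MHC class II chains H2-Aa and H2-Eb1, the chemokines Ccl4 and Ccl6, the cytokines Il1b and Tnf, the co-stimulator Cd86, the platelet-activating factor receptor Ptafr, the actin bundler Lcp1, the complement receptor C3ar1, the kinase Syk and the oxidase subunit Ncf4. The lowest of these ratios was that of Tyrobp, at 85.0 (73.6 to 98.6).

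**Figure D2:**
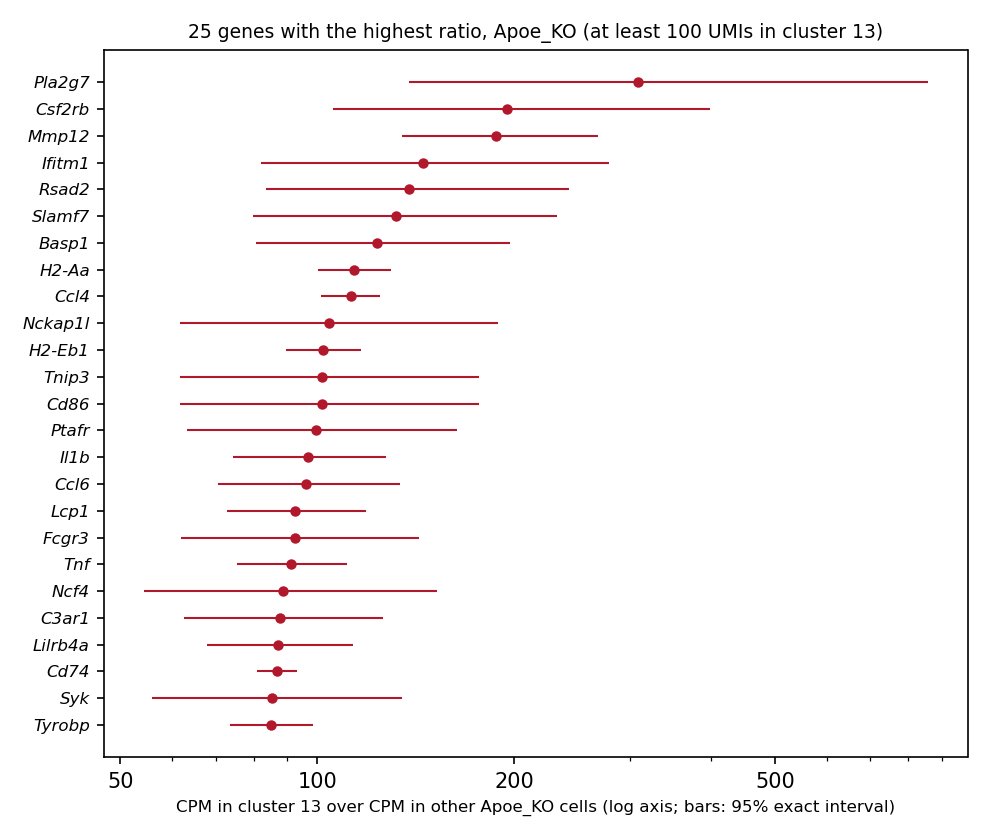
Ratio of CPM in cluster 13 to CPM in all other Apoe knockout cells (log axis) for the 25 genes with the highest ratio among genes with at least 100 UMIs in cluster 13; bars are 95% exact intervals. Genes with few UMIs outside the cluster, such as Pla2g7 with 6, have the widest bars, and H2-Aa, Ccl4 and Cd74 the narrowest.

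By level, on the scale of UMIs of 3' tags, the members' most abundant transcripts included the ferritin chains that store iron. Fth1 was at 20548 CPM, against 7409 CPM in the other cells (2.77-fold). Ftl1 was at 9114 against 599 CPM (15.2-fold, 14.7 to 15.7). The cathepsin Ctsb was at 5214 CPM (8.79-fold) and Spp1, osteopontin, at 5203 CPM (4.91-fold). Spp1 was also abundant in the other Apoe knockout cells, at 1059 CPM. Acta2 and Tagln, contractile genes of smooth muscle, were at 6423 and 3283 CPM, which was 0.34 and 0.29 times the level in the other cells.

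Antigen presentation genes were higher as a group. All 7 MHC class II genes with enough UMIs were higher, with a median log2 ratio of 6.31. H2-Aa was at 2470 CPM against 21.7 CPM, H2-Eb1 at 2098 against 20.6 and H2-Ab1 at 2071 against 26.4. These lie close together on chromosome 17. Of 6 MHC class I genes 5 were higher, with a smaller median of 2.04; B2m, the shared light chain, was 2.43-fold higher (2.24 to 2.62).

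Complement and Fc receptor genes followed. Among 10 complement genes, the rule called 8 higher and 2 lower (median log2 ratio 5.97). C1qc was at 1609 CPM, 63.4-fold above the other cells (56.0 to 71.8), and C3ar1, the C3a receptor, 87.7-fold. All 5 Fc receptor genes were higher, led by Fcer1g at 1545 CPM (61.4-fold) and with Fcgr3 at 208 CPM (92.5-fold).

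Chemokines, cytokines and their receptors were higher throughout the tested members of those lists. These were 12 of 12 chemokines, 9 of 9 cytokines and growth factors, 6 of 6 chemokine receptors and 15 of 15 genes of the inflammatory list, with median log2 ratios of 5.20, 5.69, 5.94 and 5.51. Cxcl2, a neutrophil attractant, was the most abundant of them with 4732 UMIs (5471 CPM) against 72.9 CPM (interval of the ratio 69.9 to 80.6). Ccl4, a chemokine for monocytes and T cells, had 3243 UMIs (3749 CPM) and was 112-fold higher. Tnf was at 914 CPM (91.0-fold), Il1b at 505 CPM (96.7-fold) and Igf1, a growth factor, at 274 CPM (51.6-fold). Receptors were far scarcer: Cxcr4 had 89 UMIs and Cx3cr1, the fractalkine receptor, 54. All 5 tested pattern recognition genes, of 9 in the count table, were higher. Among them were Cd14, the LPS co-receptor, at 480 CPM (48.9-fold), and Nlrp3, the inflammasome sensor, at 229 CPM (74.9-fold).

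Lipid and lysosome genes were higher to differing degrees. Of the 14 tested genes of the foamy Trem2 list 12 were higher (median log2 ratio 4.37), with Gpnmb 56.2-fold, Fabp5, a fatty acid binding protein, 48.7-fold and Lgals3, galectin 3, 28.0-fold. Of 16 cathepsin and lysosome genes 12 were higher (2.35) and 4 neither; Ctss was 72.6-fold higher, but Ctsd and Ctsl, which the other cells also expressed, 5.14- and 5.09-fold. Of 9 lipid storage and lysosomal lipid genes 8 were higher, such as Plin2, which coats lipid droplets, at 583 against 38.2 CPM (15.3-fold). Among 5 cholesterol efflux genes 3 were higher: Abca1 6.97-fold, Abcg1 29.7-fold and Pltp 17.5-fold. No gene of cholesterol synthesis or uptake regulation was higher among the 4 tested, and 1 was lower. These are too few genes to set beside the 20.3% higher and 13.1% lower among all genes.

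Not every list of macrophage functions stood out against the other Apoe knockout cells, which expressed some of these genes too. Efferocytosis genes numbered 8, of which 2 were higher and 2 lower; their median log2 ratio was -0.09. Mfge8, a bridge to dying cells, was lower, at 395 against 908 CPM, and Axl, a receptor in the same process, was at 150 against 173 CPM. Among the members, Mfge8 was at 947 CPM in the smooth muscle-rich sub-clusters described below and at 185 CPM in the other sub-clusters. For Axl these levels were 193 and 134 CPM. Of 7 tested genes of the resident macrophage list 4 were higher and 2 lower, and the defining marker Lyve1 had 2 UMIs over all 144 members. Folr2 had 34 UMIs, and Mrc1, the mannose receptor, chosen after its values were seen, had 31 against 2 in all other Apoe knockout cells. Of 8 lineage factors 7 were higher, such as Spi1 (PU.1) at 140 CPM (72.5-fold) and Irf8 at 157 CPM (54.3-fold). Il7r, listed as a T cell marker, had 225 UMIs in 59 of the 144 members, and the whole T cell list 238. The neutrophil list, with 3 genes in the table used here, summed to 19 UMIs.

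Clustering of the 144 Apoe knockout members on their own variable genes gave 6 sub-clusters of 38, 27, 27, 18, 18 and 16 cells. Sub-clusters 1, 3 and 4, with 83 cells, had more macrophage than smooth muscle UMIs in the median cell, and sub-clusters 2, 5 and 6, with 61 cells, had the opposite. Summed over cells, the macrophage and smooth muscle lists made up 3.40% and 0.494% of UMIs in the first 3 and 0.923% and 4.04% in the others. The genes that define a sub-cluster are no finding; levels are described below. The number was 5 at a resolution of 0.5 and 8 at 1.5, in place of 1.0. Sub-clusters 4 and 5 held the same cells at both resolutions, whereas 1 and 3 merged at the lower one.

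**Figure D3:**
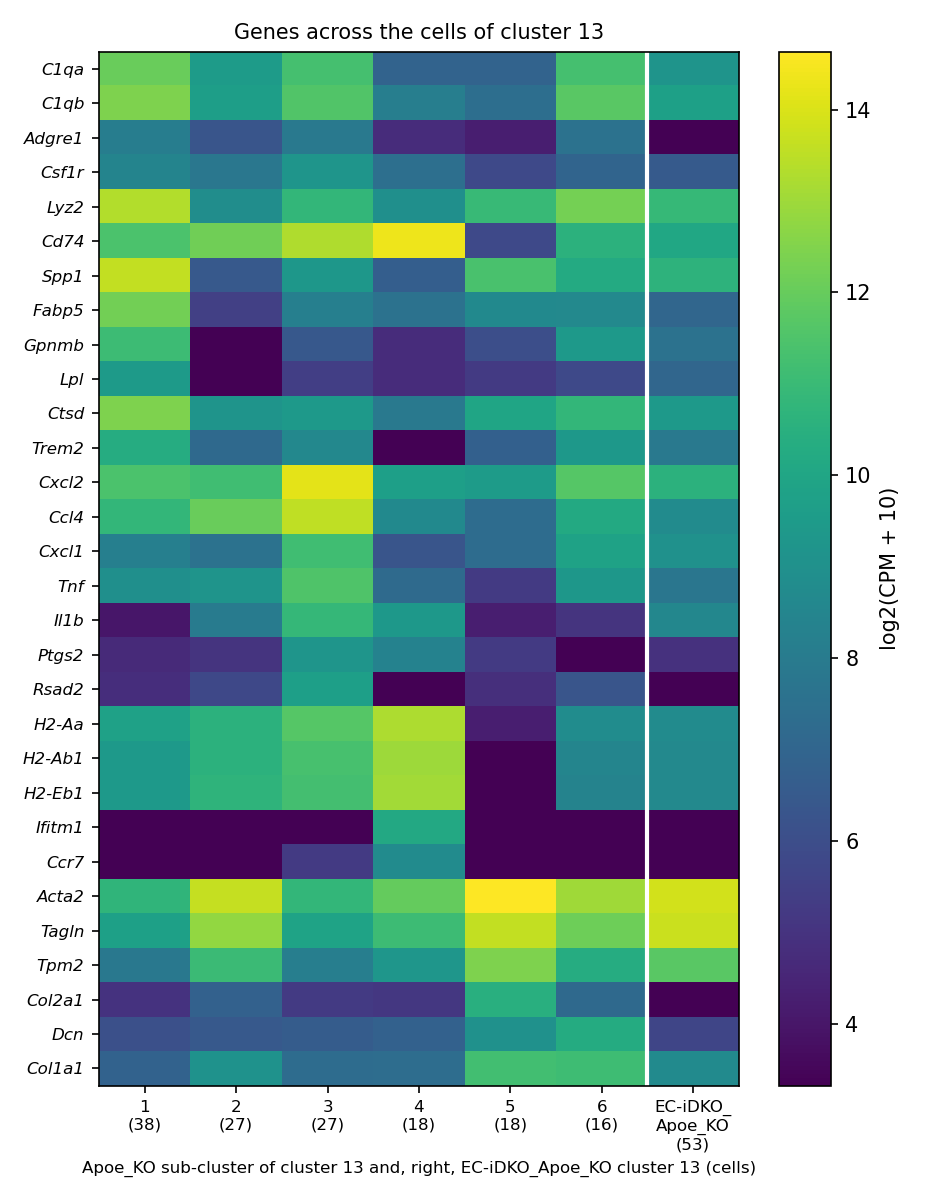
Levels as log2(CPM + 10) of 30 genes (rows) in the 6 sub-clusters of the Apoe knockout cells of cluster 13 and, right of the white line, in all double knockout cells of the cluster (number of cells in brackets). Spp1, Fabp5 and Gpnmb are brightest in sub-cluster 1, Cxcl2, Ccl4 and Tnf in 3, the H2 genes, Ifitm1 and Ccr7 in 4, and Acta2 and Tagln in 5.

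Sub-cluster 1 (38 cells, median 7116 UMIs) was foamy Trem2-like: 5 of its 10 leading genes were on that list. Summed, the list was at 37514 CPM, against 2426 to 7895 CPM in the other 5 sub-clusters. Spp1 was at 12230 CPM against 888 in the remaining members (13.8-fold, 12.5 to 15.2), Fabp5 at 4766 (18.9-fold), Gpnmb, a lysosomal membrane protein, at 2170 (22.4-fold) and Lpl, lipoprotein lipase, at 699 (28.8-fold). Atp6v0d2, a subunit of the proton pump that acidifies lysosomes, had 71 UMIs at a ratio of 116, and Ctsd and Ctsl were 7.87- and 8.07-fold higher. Trem2 itself, singled out after its values were seen, was at 1270 CPM and at 0 in sub-cluster 4. Per cell, Spp1 ranged from 0 to 916 UMIs with a median of 18, so a few cells held most of it: the 10 highest members carried 74.9% of all Spp1 UMIs. C1qb was at 5595 CPM, all 38 cells had at least 1 UMI of C1qa, C1qb or C1qc, and Il7r was at 422 CPM.

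Ctsd shows a sequence feature known from lysosomal genes, whose promoters often carry an E-box bound by the factors TFEB and TFE3. In the 250 bases before its start in the RefSeq promoter table (GRCm38.p6), CACGTG, which reads the same on both strands, occurs 2 times, and it occurs in 6.02% of all 32851 promoters of that length. Among the cathepsin and lysosome list 4 of 13 genes with a sequence hold it (Ctsd, Ctsl, Lamp1 and Lgmn). The bases upstream of the annotated GENCODE gene on the minus strand, chr7:142388039-142388077, are shown with the motif in capitals. The other match lies closer to the start, inside the GENCODE gene model.
Ctsd: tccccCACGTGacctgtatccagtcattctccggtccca

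Sub-cluster 3 (27 cells, median 6612 UMIs) was inflammatory-like, with 6 genes of the inflammatory list among its 10 leading genes. The list summed to 44436 CPM, against 1339 to 10298 CPM elsewhere. Cxcl2 was at 18170 CPM against 2094 in the remaining members (8.68-fold, 8.15 to 9.24) and was present in all 27 cells, from 2 to 728 UMIs each. Ccl4 was at 11950 CPM (7.62-fold), Tnf at 2956 (7.95-fold), Cxcl1 at 2306 (9.11-fold), Il1b at 1849 (12.5-fold) and Ptgs2, the inducible cyclooxygenase, at 589 (8.75-fold). The antiviral genes Rsad2 and Oasl1 were 37.1- and 27.4-fold higher, while the interferon list as a whole was at 3352 CPM, against 506 to 1948 CPM. C1qb, at 2972 CPM, and Cd74, at 10001 CPM, were both present in these cells.

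Cxcl1 and Cxcl2, which encode related chemokines, lie 10755 bases apart on chromosome 5 and were both among the leaders of sub-cluster 3. Inflammatory promoters are known for sites of the factor NF-kappaB. Of the 12 inflammatory list genes with a RefSeq sequence 4 hold GGG and TTTCC with any 2 bases between (both strands searched) in the 250 bases before the start: Cxcl1, Cxcl2, Il1rn and Tnfaip3. Of all promoters 1.41% hold it. Cxcl1 (chr5:90890995-90891240) and Cxcl2 (chr5:90903649-90903870), both on the plus strand and shown up to the GENCODE gene's first base, have 2 matches each, in capitals. A match is a description and not a shown binding site.
Cxcl1: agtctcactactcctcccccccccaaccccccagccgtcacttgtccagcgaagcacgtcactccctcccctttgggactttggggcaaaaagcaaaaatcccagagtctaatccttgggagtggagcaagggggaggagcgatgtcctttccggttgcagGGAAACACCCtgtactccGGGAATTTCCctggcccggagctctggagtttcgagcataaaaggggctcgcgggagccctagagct
Cxcl2: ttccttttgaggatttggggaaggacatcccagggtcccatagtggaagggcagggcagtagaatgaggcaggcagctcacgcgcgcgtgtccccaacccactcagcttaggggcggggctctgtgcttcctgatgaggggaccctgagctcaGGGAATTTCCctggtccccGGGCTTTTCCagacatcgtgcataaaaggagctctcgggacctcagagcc

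Sub-cluster 4 (18 cells, median 4872 UMIs) held few UMIs of the 6 macrophage markers other than Cd74, which goes against the label. The 12 further macrophage genes were mixed. They summed to 4182 CPM, against 828 to 16765 CPM in the other sub-clusters. Tyrobp, Ctss and Laptm5 were each seen in 17 of the 18 cells, but Mertk in 2, Mrc1 in 1 and Fcgr1 in 0. At least 5 of the 18 genes were seen in 16 of the 18 cells. C1qa and C1qb were at 113 and 277 CPM and Adgre1 at 17.3 CPM, and C1qa, C1qb or C1qc was seen in 3 of the 18 cells. MHC class II was highest here, at 48037 CPM for the list against 74.4 to 18725 CPM, with Cd74 at 20607 CPM and H2-Aa, H2-Eb1 and H2-Ab1 at 9559, 8555 and 8165 CPM. H2-Aa was seen in all 18 cells, from 1 to 128 UMIs. The leading gene was Ifitm1, with 131 UMIs here and 0 in the other 126 members. Ccr7, a receptor for lymph node homing, was 64.9-fold higher, the decoy receptor Il1r2 52.7-fold, Tbc1d4 50.5-fold and the lectin Mgl2 18.1-fold. All 3 genes of the conventional dendritic cell 2 list in the table were seen, namely Ifitm1, Flt3 at 121 CPM and Clec10a at 156 CPM. Ccl22, a chemokine of dendritic cells, was at 130 CPM, but Fscn1, which marks migratory dendritic cells, was at 0, and Ccr2, a monocyte receptor, was at 190 CPM. No cell type name was given to these cells.

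Sub-clusters 2, 5 and 6 combined macrophage UMIs with those of other aortic cells. Sub-cluster 5 (18 cells) had smooth muscle genes at 99.2% of the level of the smooth muscle class and led with Actg2, Col2a1, Rarres2 and Tpm2. Its cells had 10 to 30 macrophage UMIs each, 0.316% of all, compared with 0.0218% in the smooth muscle class. That share was not particular to sub-cluster 5. In the Apoe knockout it was 0.293% in cluster 9 cells of the class EC and 0.367% in immune/inflam cells of cluster 15. Lyz2 (1962 CPM) and Spp1 (2706 CPM) were seen in all 18 cells of sub-cluster 5, yet Cd74 was at 46.5 CPM and H2-Ab1 and H2-Eb1 at 0. Sub-cluster 2 (27 cells) led with Dmd, Adamts1, Nfib and Filip1l at 57.4% of the smooth muscle level, and differed from 5 in its macrophage genes: Cd74 was at 4648 CPM and Ccl4 at 4238 CPM. Sub-cluster 6 (16 cells) led with the fibroblast and matrix genes Dcn, Timp3, Col1a2 and Col3a1 at 35.4%, with 2.18% macrophage UMIs, C1qb at 3453 CPM and C1q seen in 16 of 16 cells. The smooth muscle levels of sub-clusters 2 and 6 were below the 60.7% of the Apoe knockout cells of cluster 9 with the class EC, and that of 5 was above it. These 3 sub-clusters thus carried different macrophage genes, and whether their cells were captured together with another cell was not tested.

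**Figure D4:**
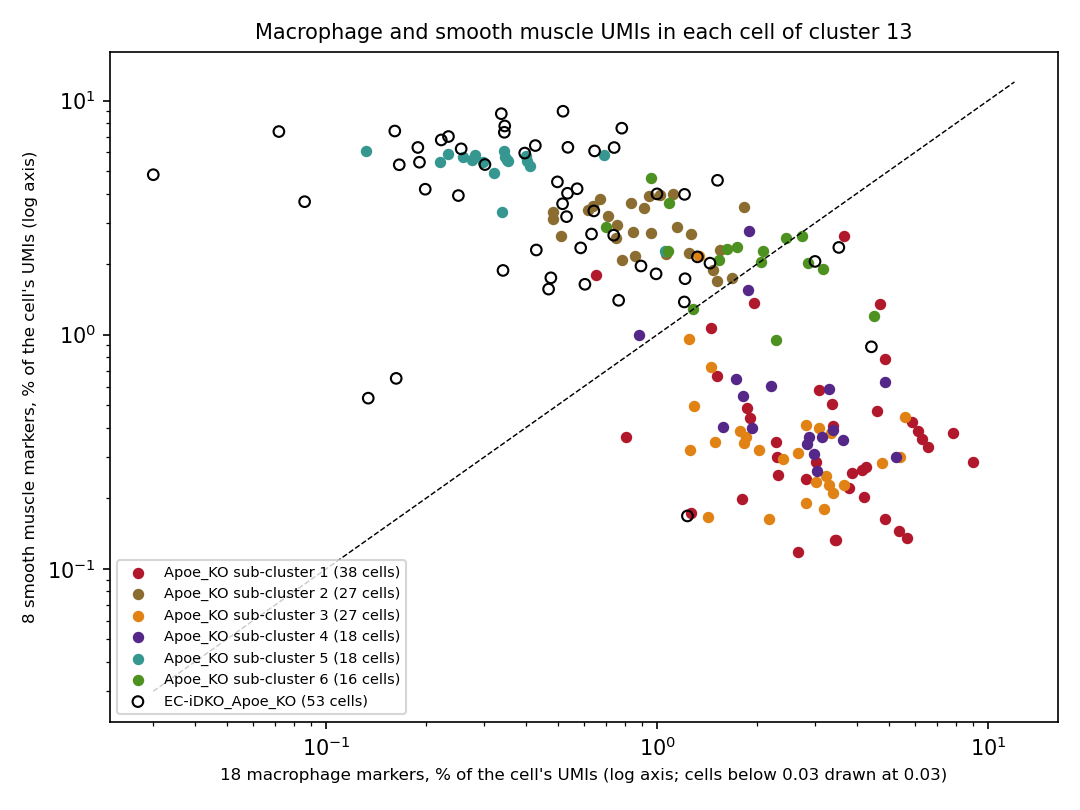
Share of each cell's UMIs from 18 macrophage markers (x, log axis) and 8 smooth muscle markers (y, log axis) for the 144 Apoe knockout cells by sub-cluster and the 53 double knockout cells (open circles); the dashed line marks equal shares. Most cells of sub-clusters 1, 3 and 4 lie below the line, while those of 2 and 5 and all but 4 of the double knockout cells lie above it.

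C1q and MHC class II divided the Apoe knockout members further. Of 144 cells, 80 carried UMIs of both a C1q chain and at least 1 of H2-Aa, H2-Ab1 and H2-Eb1, 38 carried C1q alone, 23 MHC class II alone and 3 neither. In sub-cluster 1 the counts were 25 with both and 13 with C1q alone, and in sub-cluster 4 they were 3 with both and 15 with MHC class II alone. Of the other Apoe knockout cells, 20.5% carried C1q and 17.0% MHC class II. In cluster 9 cells of the class EC, 65 of 96 carried C1q and 12 MHC class II. Of the 20 immune/inflam cells of cluster 15, 4 carried C1q and 20 MHC class II. These counts were not thinned and grow with depth, which ran from 519 to 28070 UMIs in the members.

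Proliferation genes were seen mostly in sub-clusters 1, 3 and 4. Of 7 tested genes 6 were higher in the members than in the other cells. At least 3 of 10 such genes were seen in 27 of 144 Apoe knockout members, 25 of which were in these 3 sub-clusters (9, 11 and 5), and in 28 of 1516 smooth muscle cells. Mki67, a proliferation antigen, had UMIs in 33 members. Thinned to 1000 UMIs, 6 of 139 members and 0 of 1421 smooth muscle cells met the criterion. Of the double knockout members 15 were deep enough to be thinned and 0 met it, too few cells at too low a depth to compare the libraries.

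Heat shock and immediate early genes, which tissue dissociation is known to induce, were not higher in the members. Of 10 heat shock genes 0 were higher and 3 lower than in the other Apoe knockout cells, and of 13 immediate early genes 0 and 4. Among all tested genes 20.3% were higher and 13.1% lower. Fos was at 1309 against 3057 CPM and Hspa1a at 1622 against 1672 CPM. Among the sub-clusters, the immediate early list was lowest in 3, at 3572 CPM, and highest in 2, at 12565 CPM.

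Outside cluster 13, the deposited Apoe knockout clusters had at most 0.626% macrophage UMIs (cluster 19, with 9 cells). Cells of cluster 9 with the class EC (96 cells of the Apoe knockout) had 0.293% macrophage UMIs, with Lyz2 at 1199 CPM, C1qb at 333 CPM and Cd74 at 78.7 CPM. The 20 immune/inflam cells of cluster 15 had 0.367%, with Cd74 at 2494 CPM, Lyz2 at 147 CPM and C1qb, Adgre1 and Csf1r at 0 UMIs, although a C1q chain was seen in 4 of them. Lyz2 was thus higher in cluster 9 and Cd74 in cluster 15.

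The double knockout members had lower macrophage and higher smooth muscle levels than the Apoe knockout members. Of 4198 genes with at least 30 UMIs over both, 399 (9.5%) were at least 1.5-fold higher with an interval outside 1, and 311 (7.41%) lower. Over all of them the median log2 ratio was 0, with genes at 0 UMIs in the double knockout counted as 0 at most. All 6 macrophage markers were lower, and 8 of 12 further macrophage genes; all 8 smooth muscle genes were higher (median log2 ratio 1.51). C1qa was 4.12-fold lower (2.84 to 6.22), C1qb 3.65-fold, Csf1r 3.74-fold (1.44 to 13.8) and Lyz2 2.56-fold (2.09 to 3.18). Adgre1, at 0 UMIs, was 2.77-fold lower with its count set to 3 UMIs for the ratio. Tagln was 4.13-fold higher (3.79 to 4.50) and Acta2 2.32-fold. After subtraction of the smooth muscle profile the log2 ratio of Acta2 was -1.78, the opposite sign. The members' depth, their smooth muscle RNA and their number all moved with the library, and their part in these differences was not tested.

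State and function genes were lower alongside the markers. Of the inflammatory list 10 of 15 were lower and 0 higher, and of the foamy Trem2 list 10 of 14 were lower. Of MHC class II 4 of 7 were lower, and of the cathepsin and lysosome list 14 of 16. Among all genes 7.41% were lower, but that share is no even background. The double knockout members had 48818 UMIs against 864960, so a gene scarce in the Apoe knockout members could hardly be called lower. Whether the lists differ from other genes of like abundance was not tested. Cxcl2 was at 1536 CPM (75 UMIs), 3.56-fold lower, Ccl4 at 430 CPM, 8.72-fold lower, and Spp1 at 1577 CPM, 3.30-fold lower. Fabp5 had 6 UMIs and was 16.0-fold lower (7.34 to 43.7), and Ctsb was 4.39-fold lower. Il1b, with 18 UMIs (369 CPM, 219 to 583), and Mmp12, with 21 (430 CPM, 266 to 658), were not past the rule, at 0.73 and 0.75 times the Apoe knockout level. Fth1 was at 20996 and 20548 CPM. Of 12 immediate early genes 6 were higher and 1 lower, with Fos at 2376 against 1309 CPM. The median log2 ratio of that list was 0.75, and -0.16 after the same subtraction.

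The MHC class II value of the double knockout rested on 1 cell. The member with the most macrophage UMIs, 44 of them, held 39 of the 51 Cd74 UMIs, 18 of 21 of H2-Aa and 16 of 19 of H2-Ab1, and 0 UMIs of C1qa, C1qb and Lyz2. Without it, Cd74 was at 265 CPM in place of 1045 and the MHC class II list had 27 UMIs in place of 119. C1qb and Lyz2, at 906 and 2055 CPM without it, did not depend on it. MHC class II was seen in 5 and C1q in 27 of the 53 members, and Lyz2 in 45.

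The 8 genes with the highest ratio in the double knockout had few UMIs. Lcn2, lipocalin 2, had 17 UMIs (348 CPM) against 14 (16.2 CPM), a ratio of 21.5 (9.98 to 47.1). It was at 12.0 CPM in the smooth muscle class of that library. After the filter on depth and mitochondrial share its log2 ratio was 1.64 in place of 4.43. Upf3a, Ccng1, Rras, Lars2, Ier2, Rbp4 and Lgr6 followed, with ratios from 6.16 to 8.86. Rbp4, Ier2 and Lars2 were at 471, 483 and 546 CPM in the smooth muscle class of the double knockout, close to their 451, 594 and 471 CPM in the members. The lowest ratios were those of Tgfbi, with 1 UMI against 342 (19.3-fold lower, 3.44 to 765), Fabp5, Rgs1, Gusb, Efhd2, Slc7a11, Gna13 and Wfdc17, each with 1 to 6 UMIs. For this ranking a count of 0 in the double knockout was set to 3 UMIs. A gene at 0 was thus placed above a gene of like abundance with 1 UMI. Cxcl10, for example, is not among the lowest. It had 0 UMIs in the double knockout members, against 66 in the smooth muscle-rich Apoe knockout sub-clusters and 460 in the others.

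Set beside the smooth muscle-rich Apoe knockout sub-clusters 2, 5 and 6, the double knockout members were close in some gene lists and apart in others. This comparison was chosen after the data were seen. Sub-clusters 2, 5 and 6 were grouped for having more smooth muscle than macrophage UMIs in the median cell. Closeness in the smooth muscle list, Lyz2, C1qa and C1qb is therefore partly fixed by that choice. Of 1495 genes 88 (5.89%) were higher and 124 (8.29%) lower by the 1.5-fold rule. The smooth muscle list was at 41501 CPM in the double knockout and 40366 CPM in these sub-clusters, and the foamy Trem2 list at 5019 and 5374 CPM. Other lists lay further apart: in the double knockout, the inflammatory list was at 3851 against 5642 CPM, MHC class II at 2438 against 4008, heat shock at 9197 against 14282 and fibroblast markers at 758 against 2915 CPM. The iron and heme list was the other way, at 24970 against 16443 CPM. For single genes the ratio was 0.97 for Lyz2 (0.77 to 1.22), 0.85 for C1qb (0.59 to 1.18), 0.74 for C1qa (0.48 to 1.10), 1.08 for Spp1 (0.83 to 1.38) and 0.88 for Cxcl2 (0.68 to 1.12). Each of these intervals held 1, at a depth of 48818 UMIs, which does not show that the levels were equal. Some genes did differ: Cd74 was lower (0.52, 0.38 to 0.69), Ccl4 lower (0.23, 0.14 to 0.36) and Il1b higher (3.67, 1.88 to 7.05). The double knockout values of Cd74 and MHC class II rested mostly on 1 cell. Without it, Cd74 was at 265 CPM and the MHC class II list at 597 CPM. Of the heat shock list 6 of 10 genes were lower.

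**Figure D5:**
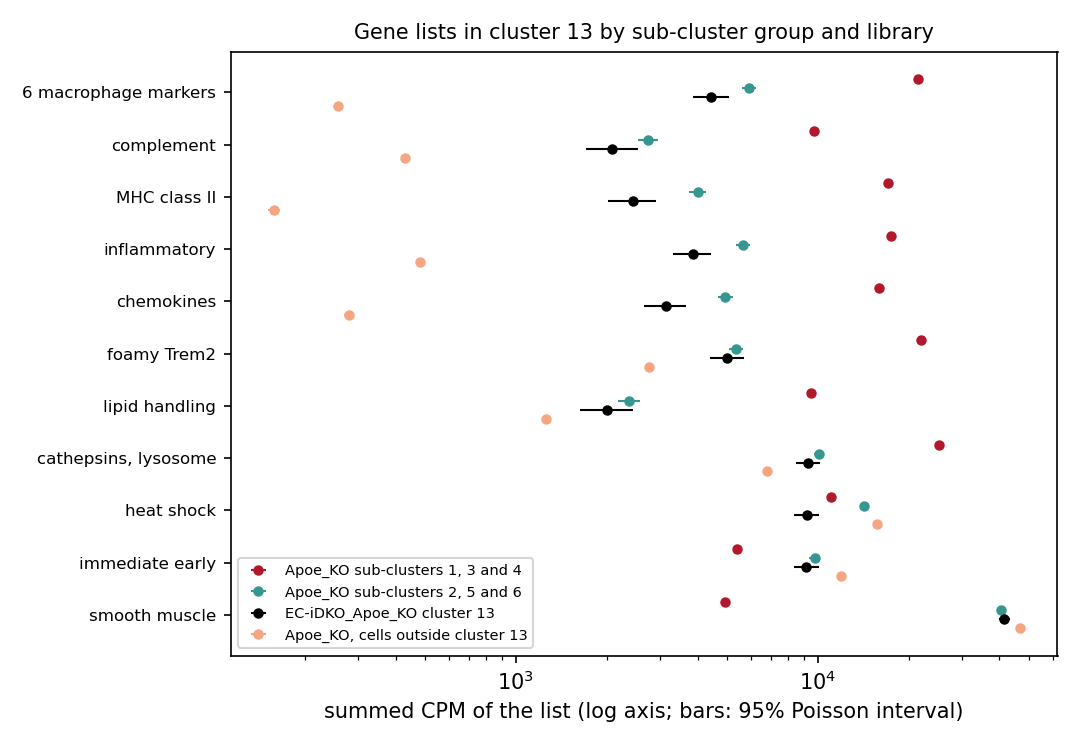
Summed CPM (log axis) of 11 gene lists in Apoe knockout sub-clusters 1, 3 and 4, in sub-clusters 2, 5 and 6, in the double knockout cells of cluster 13 and in all other Apoe knockout cells, with 95% Poisson intervals. The double knockout and sub-clusters 2, 5 and 6 overlap in the foamy Trem2 list, at 5019 and 5374 CPM, and not in the inflammatory list, at 3851 and 5642 CPM; sub-clusters 1, 3 and 4 are higher in both, at 21964 and 17472 CPM, and lower for smooth muscle, at 4939 CPM.

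The genes altered by design were scarce in these cells. Epn1 had 56 UMIs (64.7 CPM) in the Apoe knockout members and 1 in the double knockout members, and Epn2 16 and 3, so neither allows a comparison; the deletion was made in endothelial cells and a 3' tag outside a deleted exon checks nothing. Apoe, an abundant macrophage product where the gene is intact, had 13 UMIs (15.0 CPM) in the Apoe knockout members and 0 in the double knockout members.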

How the data were processed

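The authors deposited raw counts of UMIs for 14714 genes in each cell, from 10x Genomics 3' libraries, and for every cell its class and cluster as names. The mitochondrial ratio in the authors' metadata is a fraction, up to 20.0% when written as a percent. Cell Ranger, Seurat and the build mm10 are named in the submitters' processing notes; their versions are not given in the sources used. The 4856 deposited Apoe knockout entries held 2428 barcodes in 2 identical copies, and 1 was kept; 5 barcode sequences occurred in both libraries, 0 of them within cluster 13 in both.

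UMIs were summed over cells and scaled to 1000000 (CPM). Sums carry Poisson, ratios exact conditional binomial and shares Clopper-Pearson 95% intervals. Counts of 0 were set to 3 UMIs over the population for ratios, which are then bounds at that floor and not 95% limits. UMIs from PCR-amplified libraries carry molecular identifiers, and intervals cover counting error only. Sub-clusters came from scanpy 1.11.5 (1500 variable genes, 15 principal components, 15 neighbours, Leiden resolution 1.0). The ratio rule was tested on simulated data.

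Members and the 42 gene lists were chosen with earlier results of these data known; 33 of 319 list genes were not in the table used here. Named genes were the 6 markers, the 20 most abundant, the 25 with the highest ratio (at least 100 UMIs), up to 6 members per list with the most UMIs or at or near 0, 8 highest and 8 lowest between libraries, 10 per sub-cluster (at least 50 UMIs), and Epn1, Epn2 and Apoe. Rankings skipped mitochondrial, ribosomal protein, haemoglobin and predicted genes and those linked to sex. Gene positions are from GENCODE vM21 and promoters from RefSeq (GRCm38.p6). Alternatives were another cell filter, thinning, a stricter minimum, another scaling, smooth muscle subtraction and other clusterings.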

Additional observations from a re-analysis of the deposited data

How the results depend on the processing

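Shares of cells in cluster 13 stayed inside their 95% intervals with the cell filter and with the whole immune/inflam class. The number of sub-clusters was 5 and 8 at the other resolutions and 6 with other seeds, and at a resolution of 1.5 the best overlap of sub-cluster 1 with any new one was 0.42 (Jaccard index). The count of genes higher or lower in cluster 13 than in other Apoe knockout cells was 277 and 127 after thinning to 1000 UMIs and 344 and 167 with a minimum of 100 UMIs, since fewer genes were tested, and 427 genes were lower without the smooth muscle-rich sub-clusters, a choice made after the data were seen. Between libraries, counts higher and lower were 234 and 143 after a filter for 1000 or more UMIs and a mitochondrial share below 10%. They were 69 and 100 after thinning, and 207 and 173 after subtraction of the smooth muscle profile. With the minimum of 100 UMIs, 171 were higher. The main counts were 399 higher and 311 lower, so the balance turned to more genes lower after thinning. These counts are not shares, since the number of genes tested can change with the setting. Smooth muscle RNA in the double knockout members was 75.0% of the smooth muscle level in the filtered cells, in place of 67.7%. The sign turned for the median log2 ratio of the matrix protease list (0.052 in filtered cells, 0.33 after subtraction) and of the immediate early list (-0.16 after subtraction), for Lilrb4a (0.21), Selenop (0.0026) and Cfp (0.042) after thinning, and for Lcp1 (0.18) and Acta2 (-1.78) after subtraction; the cause was not tested. No value was given for a gene whose count fell to 0 under an alternative. The alternative without Scrublet doublets was not run, as the caller marked too few cells. No paired analysis was possible because each genotype had 1 library. The depth of the double knockout members, 48818 UMIs, limits what can be seen: 3 UMIs are 61.5 CPM there and 3.47 CPM in the Apoe knockout members.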
